A study of Mus musculus with 4 samples.

Results

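Forkhead (Fox) and T-box (Tbx) transcription factors were followed in OP9 cells, a mouse stromal line derived from the calvaria of newborn op/op animals that lack functional Csf1 and used to support blood progenitors in culture. Members were taken by symbol alone, as genes named Fox with a class letter from a to s and a number, or Tbx with a number, in the array annotation or in RefSeq. This gave 53 genes, 40 Fox and 13 Tbx, on 82 of the 41174 non-control probes of the array, which name 27597 genes and transcripts in all. Older names in the annotation, such as Ches1 for Foxn3 and Mllt7 for Foxo4, were updated through RefSeq. The Wnt3A group (2 arrays) carried the retroviral vector LZRS-IRES-GFP with the Wnt3A gene, and the Control group (2 arrays) carried the vector alone. All 4 samples were OP9 cells in the same medium, and each was read on a 1-colour Agilent array after global PCR amplification of the mRNA-derived cDNA. The labels speak of separate replicates and name no cultures, so the p-values measure only the spread between these samples, and nothing says whether the cells were clones, pools or sorted for the marker GFP.

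Fox proteins bind DNA through the forkhead, a winged-helix domain, and T-box proteins through the T-box. Both families pattern mesoderm and its derivatives in the embryo and keep cell identity in the adult. FOXO proteins leave the nucleus when AKT phosphorylates them, FOXM1 drives mitotic genes, and FOXC1 is known from mouse bone marrow as a factor of the stromal cells that hold blood stem cells. Secreted Wnt3A stabilises beta-catenin, which acts with TCF/LEF factors at their target genes, and the comparison asked how that signal changes the supporting cells.

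Levels below are log2 intensities relative to the 75th percentile of the same array, taken from the deposited table of all samples. A probe was called above the floor where it exceeded an estimated detection floor, which lay at -6.49 and -6.07 in the Wnt3A arrays and at -6.07 and -6.33 in the Control arrays on that scale. The deposited table and the deposited scanner files did not match array by array. The Spearman correlation between a column and its own scanner file was 0.684 and 0.746 for the Wnt3A arrays and 0.637 and 0.826 for the Control arrays, and all 4 columns lay closest to the scanner file of Control replicate 2 (0.826 to 0.845). The scanner file of Control replicate 1 was faint, with a median intensity of 7.32, against 178 for Control replicate 2. Results are therefore given from the table, with scanner values beside those the text turns on and a count of shared directions at the end.

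The only Wnt3a probe had levels of -8.74 and -5.32 in the Wnt3A arrays, against -8.28 and -8.56 in the Control arrays. It was above the floor in Wnt3A replicate 2 only and starts at base 2599 of its transcript. Whether the inserted gene holds that stretch is not known here, so these readings cannot tell whether the inserted gene was expressed. Of 10 stromal markers, 9 were above the floor on all 4 arrays, all but Lum, and their summed level was 8.78 and 8.74 (log2) in the Wnt3A arrays, against 7.75 and 8.09 in the Control arrays. The collagens carry most of that sum in the Wnt3A arrays but not in the Control arrays. Over the list 5 differences were above 0 and 4 below, with a median of 0.07. Col3a1 was at 4.27, Pdgfra at -2.25 and Vim at -0.90. All 10 blood cell markers and all 7 epithelial markers also passed the floor on all 4 arrays, as did 3 of 7 endothelial markers, of which Kdr, Tek, Emcn and Tie1 were not kept. The summed level was 1.503 and 1.41 in the Wnt3A arrays and 2.53 and 1.39 in the Control arrays for blood cell markers. It was 1.75 and 1.88 in the Wnt3A arrays and 2.16 and 1.68 in the Control arrays for epithelial markers, and 0.56 and 0.33 in the Wnt3A arrays and -0.25 and 0.04 in the Control arrays for endothelial markers. None of these markers passed the test in limma. The part of these markers in the Fox and Tbx values was not tested, and a probe above this lenient floor is a reading above background rather than proof that OP9 cells express the gene.

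Probes of 60 bases carry every value, and those of 4 genes described further on are printed here in lower case, 5′ to 3′, since the separate probes of a gene did not always give the same difference. The 3 Foxk1 probes lie on chromosome 5 of the mouse build mm8, plus strand, at chr5:142703926-142703985, chr5:142707977-142708036 and chr5:142709132-142709191. They start at bases 1048, 1831 and 2088 of the same transcript:
Foxk1, base 1048: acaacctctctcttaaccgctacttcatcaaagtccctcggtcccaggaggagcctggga
Foxk1, base 1831: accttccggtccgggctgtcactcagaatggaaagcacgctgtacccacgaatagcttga
Foxk1, base 2088: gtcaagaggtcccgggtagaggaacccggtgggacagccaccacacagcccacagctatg
The probes used for Foxp1, Foxp4 and Tbx5 are shown because their mapped ends lie much farther apart than 60 bases, so each crosses at least 1 intron and reads spliced RNA. They map to chr6:98900851-98905188 (minus strand, 4338 bases), chr17:47332972-47334469 (minus strand, 1498 bases) and chr5:120132000-120143562 (plus strand, 11563 bases) on mm8:
Foxp1, base 1799: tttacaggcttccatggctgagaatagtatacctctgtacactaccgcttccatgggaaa
Foxp4, base 1840: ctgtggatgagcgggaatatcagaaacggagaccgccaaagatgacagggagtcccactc
Tbx5, base 1612: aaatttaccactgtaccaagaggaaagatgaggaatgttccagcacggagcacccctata

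Most members gave a reading above the floor in OP9 cells. A probe above the floor on both arrays of the group was found for 42 of 53 members in the Wnt3A arrays (79.2%, where 80% of all genes passed) and for 43 in the Control arrays (81.1%, where 79.7% of all genes passed). On all 4 arrays 41 members passed, 32 Fox and 9 Tbx genes (76.8% of all genes did). With a floor 2 times as high, 37 members passed in the Wnt3A arrays (69.8%, where 74.2% of all genes passed), 39 in the Control arrays (73.6%, where 73.5% did) and 35 on all 4 (66.0%, where 70.7% did). With a floor 4 times as high, 32 members passed in the Wnt3A arrays (60.4%, where 67% of all genes passed), 32 in the Control arrays (60.4%, where 66.4% did) and 29 on all 4 (54.7%, where 63.4% did). The scanner files flagged 39 members as well above background on both Wnt3A arrays (73.6%, where 74.6% of all genes were flagged) and 28 on both Control arrays (52.8%, where 49.9% were), where the faint file of Control replicate 1 had 29 and that of Control replicate 2 had 50.

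The 9 members that did not pass were Foxd1, Foxd4, Foxf2, Foxn4, Foxp2, Tbx1, Tbx10, Tbx22 and Tbx3. No array of either group was above the floor for the brightest probe of Foxd4, Foxf2, Foxp2, Tbx1 or Tbx3. Foxd1, Foxn4 and Tbx22 were above it on 1 Wnt3A array and no Control array, and Tbx10 on 1 array of each group. Foxn4, a factor of retinal and spinal interneurons, had levels of -6.12 and -6.20 in the Wnt3A arrays, against -8.31 and -8.56 in the Control arrays. These groups do not overlap, but 3 of the 4 readings lie under the floor, and without a filter its difference of 2.27 had an adjusted p of 0.116 in limma. Foxi3, Foxl1, Foxr1 and Foxr2 have no named probe and were not analysed here.

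Of the 44 members tested, 0 rose and 0 fell at the threshold of 0.05 on limma's p-values, adjusted over all 22859 genes tested. Over all genes 104 rose (0.455%) and 70 fell (0.306%). In limma 3 members had an unadjusted p under 0.05, or 6.82%, against 13.7% of all genes. Of these 2 were lower in the Wnt3A arrays, Foxj2 and Foxa1 (6.94% of all genes were), and 1 was higher (6.78% of all genes were). Foxa1 passed the floor on both arrays in the Control group only. Differences were evenly split, with 22 members above 0 and 22 below, and the median difference was -0.01, equal to that of all genes. The median absolute difference was 0.40 in members and 0.41 in all genes. With 1 array left out, so that a group holds 1 array, which is assumed to vary like the other group, limma called 0 genes in either direction, with 2362 to 2964 genes at an unadjusted p under 0.05 against 3137 with all 4.

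**Figure D1:**
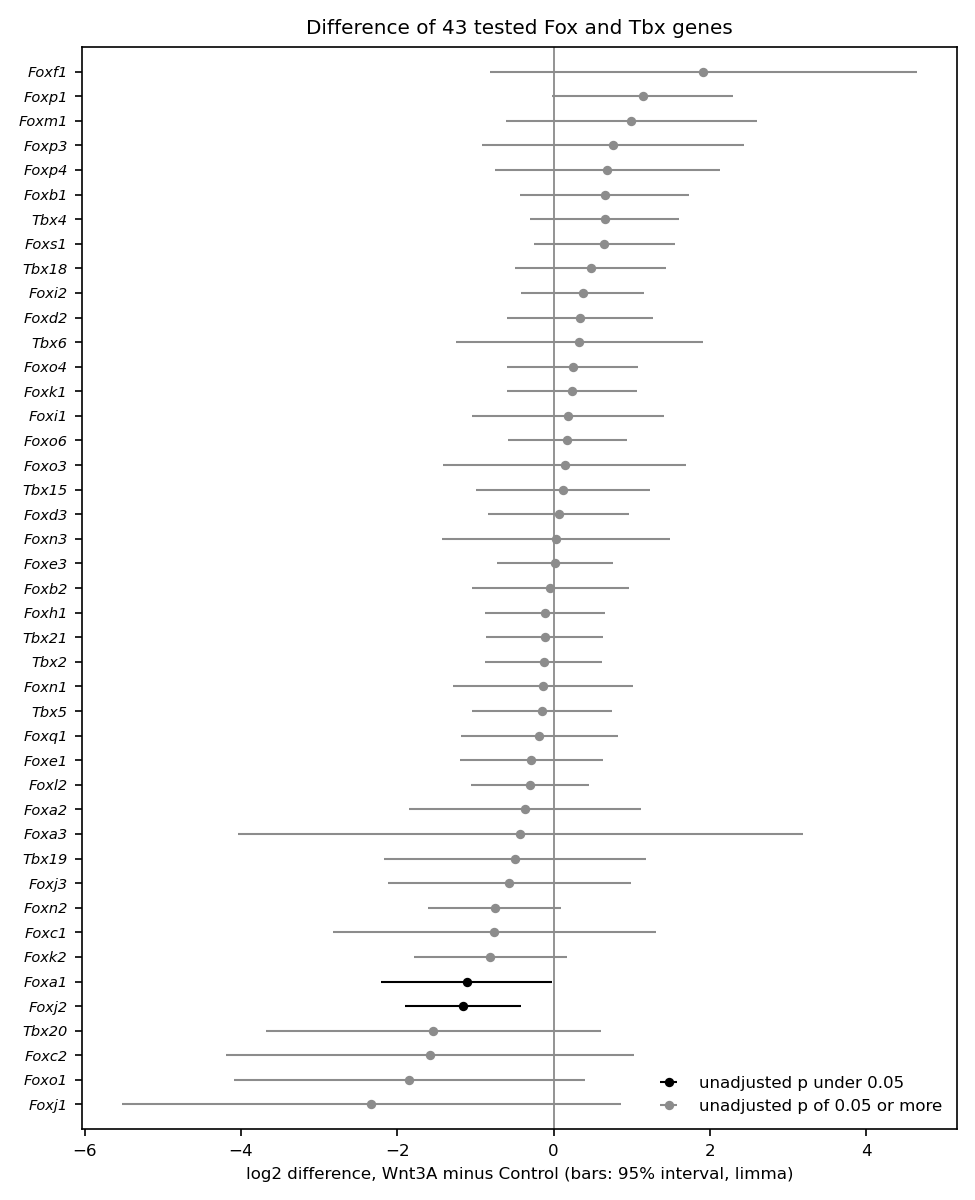
Log2 difference between the Wnt3A and Control arrays for 43 of the Fox and Tbx genes tested, with 95% intervals from limma as bars (2 arrays per group, not adjusted for the number of genes). Differences ran from -2.33 for Foxj1 to 1.92 for Foxf1, and the intervals of Foxj2 and Foxa1 do not reach 0.

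Foxj2, a widely expressed forkhead activator, had the smallest p of the members. Its level was -0.23 and -0.35 in the Wnt3A arrays, against 0.88 and 0.87 in the Control arrays. Both Wnt3A arrays lay below both Control arrays, and the arrays of a group differed little from each other. The difference was -1.16 ± 0.28 (log2, SE, 2 arrays per group), with a 95% interval of -1.91 to -0.42 and an adjusted p of 0.204 in limma (unadjusted 0.0116). Its probe lies at chr6:122810758-122810817 on mm8. In the scanner files the same probe differed in the opposite direction, by 1.59 ± 1.38 (SE). This SE was the same for every member and listed gene tested there, so it does not measure the spread of single probes.

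Foxa1, a pioneer factor of endodermal tissues, had levels of -5.94 and -6.25 in the Wnt3A arrays, against -4.58 and -5.40 in the Control arrays. Wnt3A replicate 2 lay under the floor, so the gene was tested only through its Control readings. The difference was -1.11 ± 0.40 (SE, 95% interval -2.20 to -0.02, adjusted p 0.358 in limma), and it was -0.87 in the scanner files. All readings of Foxa1 lay within 1.49 log2 units of the floor.

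The sequences before the starts of Foxj2 and Foxa1 are shown because these are the members with the smallest p among those lower in the Wnt3A arrays. They are the 250 bases upstream of the RefSeq start on GRCm38.p6, at chr6:122819934-122820183 (plus strand) for Foxj2 and chr12:57546112-57546361 (minus strand) for Foxa1. Capitals mark a match to any of 3 motifs of 7 letters, searched on both strands: CTTTGAT for TCF/LEF factors, GTAAACA for forkhead proteins and GGTGTGA for T-box proteins:
Foxj2: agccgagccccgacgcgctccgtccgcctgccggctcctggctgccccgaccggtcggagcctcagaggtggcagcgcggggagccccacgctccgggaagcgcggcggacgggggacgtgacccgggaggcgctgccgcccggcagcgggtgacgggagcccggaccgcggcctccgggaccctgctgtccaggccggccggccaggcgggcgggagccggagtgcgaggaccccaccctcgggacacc
Foxa1: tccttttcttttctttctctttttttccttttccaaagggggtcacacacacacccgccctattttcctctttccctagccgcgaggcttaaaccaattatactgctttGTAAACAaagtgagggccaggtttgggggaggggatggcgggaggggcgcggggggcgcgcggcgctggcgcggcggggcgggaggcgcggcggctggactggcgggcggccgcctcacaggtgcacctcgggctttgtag
The Foxa1 stretch holds 1 forkhead match, whose first letter is at position -141 relative to the start, and the Foxj2 stretch, with 80.4% G and C, holds none of the 3 motifs. RefSeq had such sequences for 34 of the 53 members, with 42 starts. Of these 42, 0 held the TCF/LEF motif (3.21% of all 32851 starts did), 1 held the forkhead motif (3.17% of all) and 0 the T-box motif (3.33% of all). No matches overlapped. These counts describe the letters in the windows only.

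FOXO genes gave no call. Foxo1 had levels of -2.43 and -4.48 in the Wnt3A arrays, against -1.09 and -2.13 in the Control arrays. The groups do not overlap, with a difference of -1.85 ± 0.83 (SE, 95% interval -4.09 to 0.40, adjusted p 0.449 in limma). Its other kept probe read -2.15 and -6.34 in the Wnt3A arrays, against -5.44 and -1.74 in the Control arrays. At that probe the arrays of a group differed by more than the groups did, and the difference was -0.66. In the scanner files Foxo1 differed by -2.46 at the first probe and by -0.46 at the other. The first probe was not flagged well above background there on Wnt3A replicate 2 or Control replicate 1. Foxo3 differed by 0.14, Foxo4 by 0.25 and Foxo6 by 0.17, each with a 95% interval that held 0, and by -1.66, -0.39 and -1.53 in the scanner files.

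Among the FOXO target genes, 1 of 21 tested rose and 0 fell (background 0.455% and 0.306%), and the median difference of the list was -0.24, against -0.01 over all genes. The gene that rose was Pdk4, a kinase that shuts down pyruvate dehydrogenase, with levels of -0.59 and -0.40 in the Wnt3A arrays, against -4.74 and -4.82 in the Control arrays. Its difference was 4.28 ± 0.28 (SE, adjusted p 0.0257 in limma), and it was not among the genes tested in the scanner files. Catalase (Cat) had the next smallest p, with a difference of -1.84 (adjusted p 0.127 in limma), but of 0.97 in the scanner files. Of 16 FOXO regulators 0 rose and 0 fell, with a median of 0.16. The smallest p were those of Pik3r1, the regulatory subunit of PI3-kinase (1.51, adjusted p 0.135 in limma), and of the kinase Sgk1 (-1.21, 0.247).

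The FOXP genes had higher group means in the Wnt3A arrays at every kept probe of the table, though none passed. Foxp1, which is needed for early B cell development in mice, had levels of 3.39 and 2.49 in the Wnt3A arrays, against 1.62 and 1.99 in the Control arrays at the intron-crossing probe printed above. The groups do not overlap there, and the difference was 1.14 ± 0.43 (SE, 95% interval -0.02 to 2.30, adjusted p 0.371 in limma). Its other kept probes differed by 1.93 and 1.1. At the first of these the groups overlap and Control replicate 2, at -7.51, lay under the floor. All 3 probes differed in the opposite direction in the scanner files, by -0.58 at the intron-crossing probe and by -3.26 and -0.27 at the others.

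Foxp4 had levels of 1.01 and 2.02 in the Wnt3A arrays, against 1.26 and 0.39 in the Control arrays. These overlap, with a difference of 0.69 at the intron-crossing probe and 0.94 at the other. Foxp3, the factor of regulatory T cells, read -0.59 and 0.59 in the Wnt3A arrays, against -0.20 and -1.32 in the Control arrays, also overlapping, with a difference of 0.76 ± 0.62 (SE).

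The FOXK genes, which repress autophagy and muscle genes, showed how far the probes of a gene can part. All 3 Foxk1 probes were higher in the Wnt3A arrays, but by 0.51, 1.73 and 0.23 in the order printed above. At the probe starting at base 1831 the levels were 0.57 and 1.48 in the Wnt3A arrays, against -0.17 and -1.24 in the Control arrays. At the probe starting at base 2088, which stands for the gene, they were 2.45 and 2.64 in the Wnt3A arrays, against 2.50 and 2.12 in the Control arrays, with a 95% interval of -0.60 to 1.07 for the difference. The groups do not overlap at base 1048 or base 1831 and overlap at base 2088. In the scanner files all 3 probes differed in the opposite direction, by -2.03, -0.35 and -0.24.

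Foxk2 read 1.52 and 0.85 in the Wnt3A arrays, against 2.09 and 1.90 in the Control arrays, at the probe used. The difference there was -0.81 ± 0.36 (SE, adjusted p 0.448 in limma), while its other 3 probes gave -0.44, 0.16 and 2.02. The direction of Foxk2 thus depended on the probe, and by the mean of its probes the difference was 0.23. In the scanner files Foxk2 differed by -1.68 at the probe used, and by 1.98, -1.97 and -1.67 at the others in that order.

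**Figure D2:**
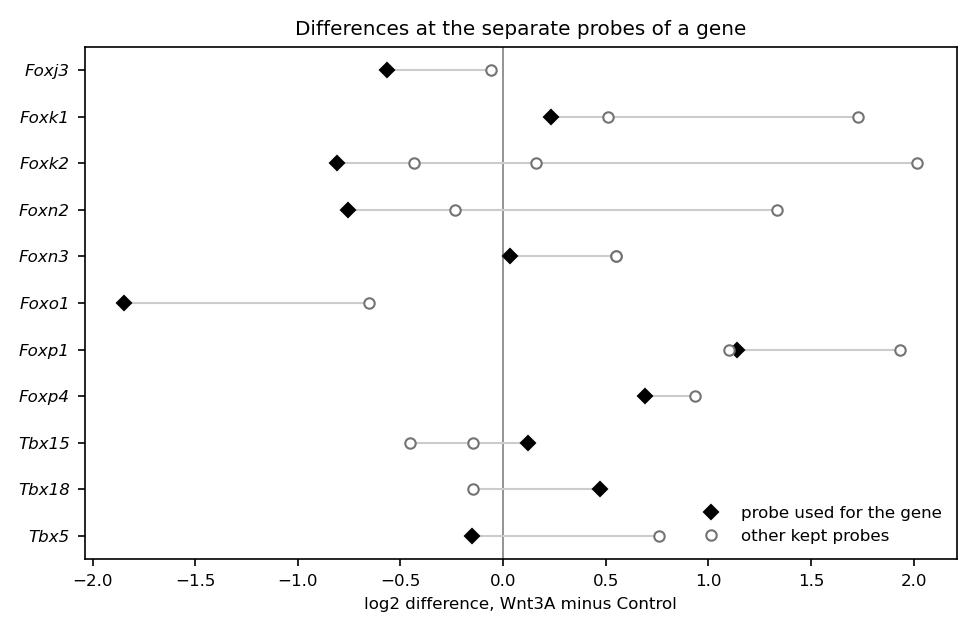
Log2 difference between the Wnt3A and Control arrays at each kept probe of the 11 members with several kept probes, with the probe used for the gene as a filled diamond and the others as open circles. All probes of Foxj3, Foxk1, Foxn3, Foxo1, Foxp1 and Foxp4 lie on the same side of 0, and those of Foxk2, Foxn2, Tbx15, Tbx18 and Tbx5 lie on both sides.

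Across the 11 members with several kept probes, all probes had the same direction in 6, or 54.5%. Over the 7469 genes of the table with several kept probes this share was 56.2%. Foxn2 differed by -0.24, 1.33 and -0.76 at its 3 probes, and the groups did not overlap at the last of these in the downward direction or at the probe with 1.33 in the upward direction.

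Foxm1, the activator of mitotic genes, had levels of 0.01 and 1.26 in the Wnt3A arrays, against -0.81 and 0.09 in the Control arrays. The groups overlap, with a difference of 0.996 ± 0.59 (SE, 95% interval -0.61 to 2.60, adjusted p 0.569 in limma). Its 20 target genes were all tested, and 0 rose and 0 fell, with 7 above 0 and 13 below and a median of -0.17. Cenpb (-0.80) and Ccnb2 (-0.92) had the smallest p, with adjusted p of 0.351 and 0.353 in limma.

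Fox genes of mesenchyme lie in a pair of genomic clusters, and neighbours in a cluster did not share a difference that passed. On chromosome 8, Foxf1, a hedgehog-dependent factor of gut and lung mesenchyme, read -2.50 and -1.07 in the Wnt3A arrays, against -4.94 and -2.47 in the Control arrays. Its groups overlap, since Wnt3A replicate 1 lies below Control replicate 2, and the difference was 1.92 ± 1.01 (SE, adjusted p 0.520 in limma), or -1.27 in the scanner files. Foxc2, a factor of lymphatic vessels and mesoderm, read -4.12 and -6.76 in the Wnt3A arrays, against -4.16 and -3.55 in the Control arrays, with a difference of -1.59 ± 0.97 (SE, adjusted p 0.578 in limma). Wnt3A replicate 2 was under the floor for Foxc2, so that gene was tested only through its Control readings, and the groups overlap. The scanner files flagged Foxc2 on none of the 4 arrays. Only Mthfsd lies between these 2 genes among the protein-coding genes in RefSeq.

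On chromosome 13, Foxc1 read -1.19 and -2.95 in the Wnt3A arrays, against -1.87 and -0.75 in the Control arrays, with a difference of -0.76 (95% interval -2.82 to 1.31). Foxq1, known in mice from a mutant with abnormal hair shafts, read 1.19 and 1.22 in the Wnt3A arrays, against 1.76 and 1.01 in the Control arrays, with a difference of -0.18. The groups overlap for both genes, and Foxf2 between them was not above the floor. Foxs1, which is in neither cluster, read 0.28 and 0.73 in the Wnt3A arrays, against 0.04 and -0.32 in the Control arrays, and differed by 0.65 ± 0.33 (SE, adjusted p 0.510 in limma).

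**Figure D3:**
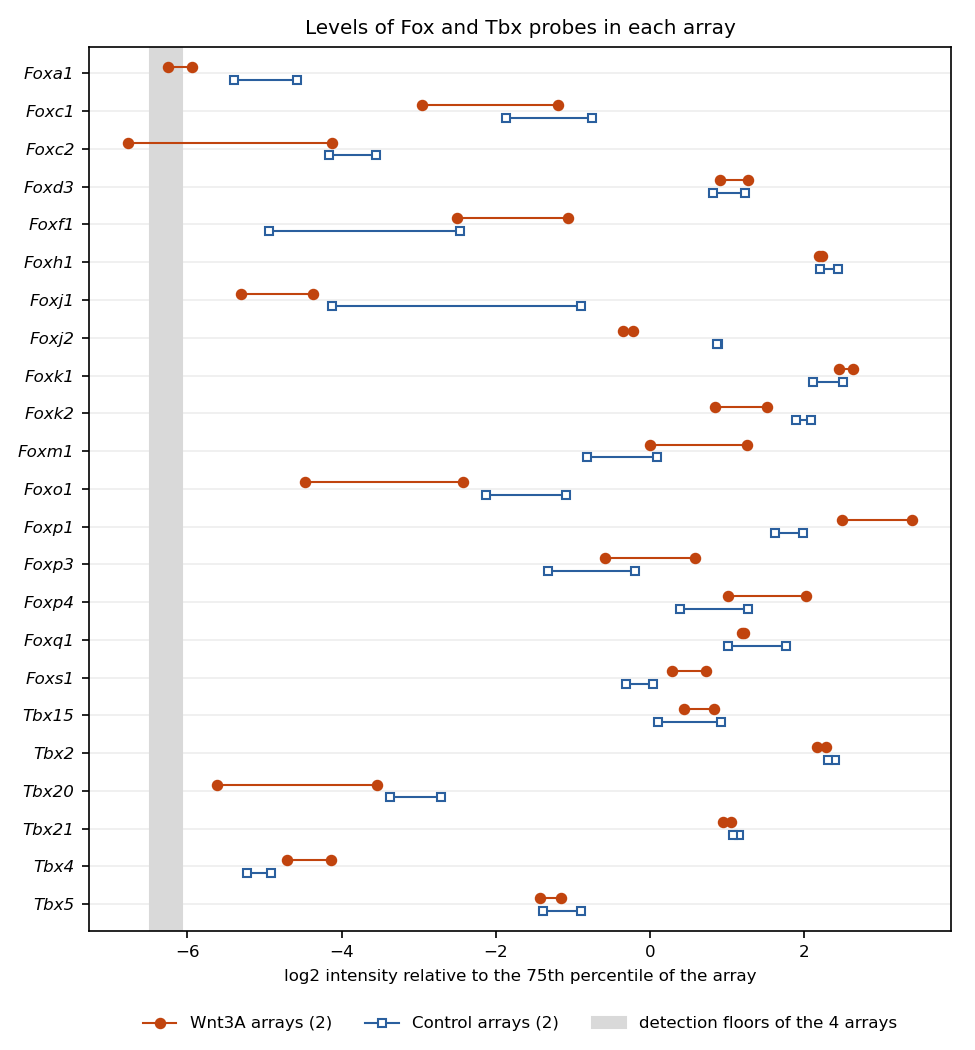
Levels of 23 Fox and Tbx genes that were tested in each of the 2 Wnt3A arrays (filled circles) and 2 Control arrays (open squares), as log2 intensity relative to the 75th percentile of the array, with the floors of the 4 arrays (-6.49 to -6.07) as a grey band. A line joins the arrays of a group. For Foxf1, Foxc2, Foxj1, Foxo1, Tbx20, Foxc1 and several others, the longer line exceeds the difference between the group means.

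Foxj1, the master factor of motile cilia, showed the lowest difference of all members and a wide spread. It read -4.37 and -5.31 in the Wnt3A arrays, against -0.89 and -4.12 in the Control arrays. The groups do not overlap, though Wnt3A replicate 1 and Control replicate 2 lay close together, and the size of the difference rests on Control replicate 1. The difference was -2.33 ± 1.18 (SE, 95% interval -5.52 to 0.86, adjusted p 0.504 in limma), and without Control replicate 1 it was -0.72.

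Foxh1 and Foxd3 are known from embryonic tissues. Foxh1, the SMAD partner in Nodal signalling, read 2.19 and 2.23 in the Wnt3A arrays, against 2.44 and 2.21 in the Control arrays, with a difference of -0.11 (95% interval -0.88 to 0.65). Foxd3, a factor of neural crest and pluripotent cells, read 0.91 and 1.27 in the Wnt3A arrays, against 1.24 and 0.81 in the Control arrays, and differed by 0.06 (-0.84 to 0.96). Both were flagged well above background on all 4 scanner arrays. The groups overlap for both genes, and whether these probes read other transcripts was not tested.

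The other Fox genes tested were Foxa2, Foxa3, Foxb1, Foxb2, Foxd2, Foxe1, Foxe3, Foxi1, Foxi2, Foxj3, Foxl2, Foxn1, Foxn2, Foxn3, Foxo3, Foxo4 and Foxo6, with differences between -0.76 (Foxn2) and 0.66 (Foxb1). Control replicate 2 lay under the floor for Foxb1, so that gene was tested only through its Wnt3A readings. Foxa3 had the widest interval, -4.04 to 3.19, with levels of -4.66 and -4.13 in the Wnt3A arrays, against -5.86 and -2.07 in the Control arrays.

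Of the T-box genes, 9 of 13 were tested, and none passed. Tbx2, a repressor of cell cycle inhibitors, had levels of 2.17 and 2.28 in the Wnt3A arrays, against 2.40 and 2.31 in the Control arrays. The groups do not overlap, yet the difference was only -0.13 ± 0.28 (SE, 95% interval -0.88 to 0.62). Its neighbour Tbx4 on chromosome 11, a hindlimb and lung factor, read -4.71 and -4.14 in the Wnt3A arrays, against -4.92 and -5.23 in the Control arrays, with a difference of 0.65 ± 0.35 (SE, adjusted p 0.530 in limma).

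Tbx5, the forelimb and heart factor, read -1.43 and -1.16 in the Wnt3A arrays, against -0.90 and -1.39 in the Control arrays, at the intron-crossing probe. The groups overlap there (difference -0.15, 95% interval -1.05 to 0.75). Its other probe differed by 0.76, in the opposite direction and without overlap. The neighbour Tbx3 on chromosome 5 was not above the floor.

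Tbx20, a heart factor, had the largest difference of the T-box genes. It read -5.62 and -3.54 in the Wnt3A arrays, against -3.38 and -2.71 in the Control arrays, without overlap, with a difference of -1.54 ± 0.79 (SE, adjusted p 0.510 in limma). Only 1 of its 4 probes was kept, and that probe is assigned to a transcript outside RefSeq. The probes assigned to its RefSeq transcripts were above the floor on 0 Wnt3A arrays and at most 1 Control array. Tbx15, a factor of the limb and head skeleton, read 0.83 and 0.44 in the Wnt3A arrays, against 0.10 and 0.92 in the Control arrays, and its 3 probes gave 0.12, -0.46 and -0.15.

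Tbx21, the T-bet of helper T cells, read 0.95 and 1.05 in the Wnt3A arrays, against 1.15 and 1.08 in the Control arrays, without overlap and with a difference of -0.12 (95% interval -0.86 to 0.63). Its scanner difference was -2.26 ± 1.38 (shared SE), and it was well above background on all 4 of those arrays. Tbx18, Tbx19 and Tbx6 differed by 0.47, -0.49 and 0.33. Of the T-box family genes outside the symbol rule, Eomes, Mga and Tbr1 were tested and T was not above the floor. None passed, and Mga had the smallest p (1.01, adjusted p 0.291 in limma).

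In 18 of the 44 tested members the Wnt3A arrays lay wholly above or below the Control arrays, or 40.9%, where 45.2% of all genes did not overlap. Of these, 8 were higher (21.5% of all genes) and 10 lower (23.7% of all genes) in the Wnt3A arrays. The absolute difference exceeded 1 in 9 members, or 20.5%, against 20.1% of all genes. The median SD within groups was 0.40 in members and 0.38 in all genes, and it exceeded 1 in 7 members. The 95% interval lay inside -1 to 1 for 6 members and inside -2 to 2 for 29, and it reached past 2 in either direction for 15. With 2 arrays in each group, 0.333 is the smallest two-sided p of an exact permutation test.

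In the genes around these factors, 1 of 17 mesoderm partners rose and 0 fell (background 0.455% and 0.306%), with a median of 0.16 against -0.01 over all genes. It was Mef2c, a MADS-box factor of muscle and bone, with levels of -0.13 and 0.69 in the Wnt3A arrays, against -6.07 and -6.96 in the Control arrays. Both Control readings lay under the floor, so the gene was tested only through its Wnt3A readings, and the difference is a bound. Set against the floor, Mef2c was at least 88.9-fold higher in the Wnt3A arrays. The adjusted p of 0.0298 in limma belongs to the difference of 6.79 computed with the readings under the floor, not to this bound. In the scanner files Mef2c differed by -0.73 ± 1.38 (shared SE). Twist1 had the next smallest p (2.02, adjusted p 0.203 in limma). Of 15 hedgehog and FGF genes, 1 rose and 0 fell (background 0.455% and 0.306%), with a median of 0.43. This was the receptor Fgfr2, with a difference of 7.21 ± 0.38 (SE, adjusted p 0.0211 in limma) in the table. In the scanner files it was -2.04 ± 1.38 (shared SE). The Sprouty antagonists of FGF signalling differed in both directions and did not pass. Spry1 differed by 6.14 (adjusted p 0.0511 in limma), and Spry2 by -1.20 (adjusted p 0.297 in limma). In the scanner files Spry1 differed by -0.16 and Spry2 by -4.17. Both Wnt3A readings of Spry4 lay under the floor, against -1.18 and -3.12 in the Control arrays. This gene was thus tested only through its Control readings. Set against the floor, Spry4 was at least 17.5-fold lower with Wnt3A, which is a bound. The adjusted p of 0.0657 in limma belongs to the difference of -6.24 computed with the readings under the floor. Spry4 was not among the genes tested in the scanner files. Spry2 and Spry4 were named after their values were seen.

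In the scanner files, 41 members were tested in limma and 0 rose or fell, where 2 of 20768 genes passed (0.00963%). None of the 41 had an unadjusted p under 0.05, which 2.6% of all genes had. Of the 39 members tested in both sources, 20 had the same direction, or 51.3%, as did 49.98% of the 20045 genes tested in both. Each source used its own brightest kept probe, and the probes differed for Foxo1, Tbx15 and Tbx18. Tbx15 and Tbx18 count as opposite here. At the table's probe, however, Tbx15 differed by 0.12 in the table and 0.48 in the scanner files, and Tbx18 by 0.47 and 0.04.

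**Figure D4:**
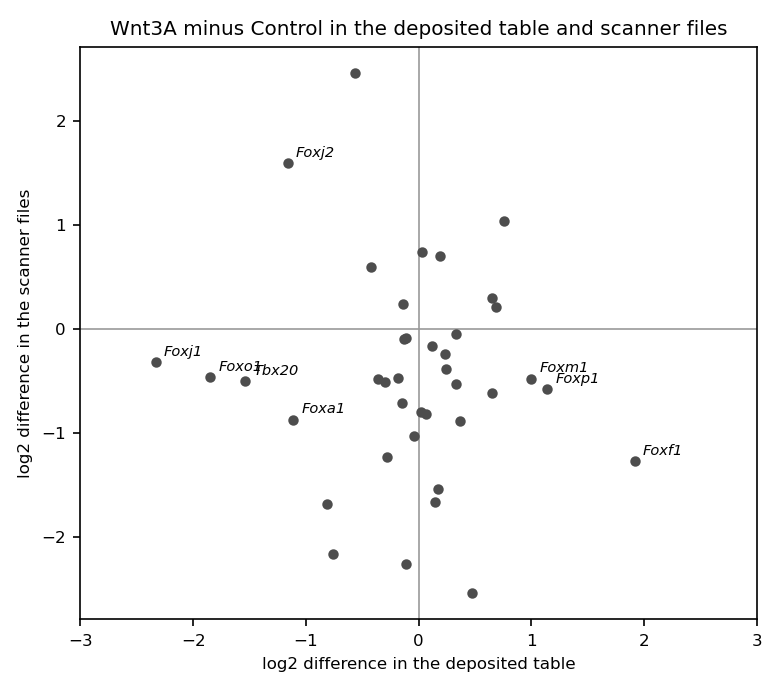
Log2 difference between the Wnt3A and Control arrays in the deposited table (horizontal axis) and in the scanner files (vertical axis) for the 39 members tested in both, each point a gene by the probe used in that source. Foxj2, Foxf1, Foxp1 and Foxm1 lie on opposite sides of 0 in the 2 sources, and 20 of 39 points lie on the same side.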

How the data were processed

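The deposited table holds a linear intensity per spot with a median of 1 in every column, and its scaling beyond Agilent Feature Extraction is not given in the sources used here. The authors' scanner output, per the file headers, gives background-subtracted intensity and other values (flags of 0 or 1) per spot, and all 4 arrays share a slide and scan. Table values were taken to log2, less the array's own 75th percentile, and spots of a probe were averaged (43379 spots, 41174 probes). In 245 probes with several spots the median SD between spots was 0.08 to 0.10 (log2), against 3.41 to 3.51 over all spots, which checks the join of table and annotation. The floor was 4.94 times the 1st percentile of a column, the median over the scanner files (4.85 to 4.99) of the lowest signal flagged above background over that percentile. A probe was kept if either group had both arrays above it, and the brightest kept probe (mean of 4 arrays) stood for its gene. RefSeq named 24375 probes by accession. limma 3.58.1 in R 4.3.3 (lmFit, eBayes, two-sided, Benjamini-Hochberg over 22859 genes, 2 residual degrees of freedom, prior 2.29) tested Wnt3A minus Control. The fit was first tested on simulated data.

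The members and lists were chosen with earlier results of these data known. Genes were named by p, by the 12 highest mean levels, by the 12 largest differences, by genomic cluster, and in lists by the test and the smallest 2 p. Levels of different probes were ranked to pick these genes and the probe of each gene, and summed over marker lists. They are not otherwise compared between genes. The values of 1 member, which stays in the counts, are not reported here. Same-numbered arrays of the groups did not deviate together (r = 0.015 over 22859 genes). The table is the main source and the scanner files are the alternative. Arrays of the table are more alike within groups (r 0.943 to 0.948) than between (0.895 to 0.902). That likeness is part of the difference tested here, so it gives no ground for choosing a source.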

Additional observations from a re-analysis of the deposited data

How the results depend on the processing

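No Fox or Tbx gene passed in any alternative run, including the 2 chosen after seeing the data (all kept probes tested separately, and the scanner files without the faint Control replicate 1). The smallest adjusted p in limma was 0.167 for a tested member and 0.116 for Foxn4, which was tested only without a filter. Over all genes the counts of 104 that rose and 70 that fell became 53 and 29 with no filter on dim probes, 24 and 16 where 4 of 4 arrays had to exceed the floor, and 130 and 110 with trend and robust settings. They were 0 and 0 in the replicate block and 0 and 0 without any 1 array. At an unadjusted p under 0.05 in limma these fits gave 3097 genes with the block and 2362 to 2964 without 1 array. With probes tested separately, 143 rose and 86 fell. The scanner files gave 0 and 2, with normexp and quantile normalization 0 and 0, and without Control replicate 1 again 0 and 0 (539, 319 and 521 genes at an unadjusted p under 0.05). They flagged 28 members on both Control arrays, or 52.8%, where 49.9% of all genes were flagged, against 43 above the floor in the table.

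Of the differences of 24 members, 16 of 40 scanner values, 8 of 96 values without 1 array and 3 of 24 with probes averaged reversed. The other settings leave a difference as it is or nearly so, and 0 of their 165 values reversed. Some scanner values came from a probe of the gene other than the one used in the table, as given below. The cause was not tested. In the scanner files the differences were -0.82 for Foxd3, -1.27 for Foxf1, 1.59 for Foxj2, -0.24 for Foxk1, -0.48 for Foxm1, -0.58 for Foxp1 and -0.16 for Tbx15. The value of Tbx15 came from another of its probes, at which the table difference was -0.15. At the probe used in the table, Tbx15 differed by 0.48 in the scanner files. With normexp the differences were -0.80 for Foxd3, -0.24 for Foxf1, 1.18 for Foxj2, -0.34 for Foxk1, -0.068 for Foxm1, 0.29 for Foxo1, -0.63 for Foxp1, -0.0071 for Foxp4 and -0.31 for Tbx15. For Foxo1 and Tbx15 the probe was again not the one used in the table. Averaging the kept probes of each gene gave 0.23 for Foxk2, -0.16 for Tbx15 and 0.31 for Tbx5. Leaving out 1 array turned the sign of Foxc1 (-1.64 to 0.12), Foxd3 (-0.15 to 0.28), Foxh1 (-0.23 to 0.0016), Foxq1 (-0.56 to 0.19), Tbx15 (-0.29 to 0.53) and Tbx5 (-0.39 to 0.093). The 2 pairs of replicate numbers share only a number, and the block changed no call on a member. With 2 arrays a group, precision is limited throughout.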
